A study of Mus musculus with 72 samples.

Results

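The acute phase proteins are plasma proteins that hepatocytes make in changed amounts during inflammation, and Cxcl1 is a chemokine that attracts neutrophils. Their transcripts were followed in 10 genes chosen by symbol, namely Saa1, Saa2, Saa3, Saa4, Cxcl1, Lcn2, Orm1, Orm2, Hp and Apcs, which account for 15 of the 30146 probes and 10 of the 21400 symbols in the count table. Livers came from female B6C3F1 mice of 9 to 11 weeks, housed singly, that drank water with tertiary butyl alcohol (TBA) at 0, 10, 20 or 40 mg/mL for 14 or 28 d. There were 9 animals for each of the 8 combinations of dose and duration, and both 0 mg/mL groups are the controls of their own duration. RNA was read by TempO-Seq in scrapings of fixed, paraffin-embedded liver sections, in which pairs of detector probes are joined on the transcript and counted, so each value is a read count for 1 probe and no allele or transgene was involved. The series concerns how TBA acts in female mice that develop thyroid tumours.

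Infection or tissue injury leads macrophages and other cells to release interleukin-6, interleukin-1 and tumour necrosis factor. In hepatocytes these cytokines act through STAT3, C/EBP and NF-kB factors, and transcripts of positive acute phase proteins such as serum amyloid A rise while those of negative ones such as albumin and transthyretin fall. Serum amyloid A1 and A2 are the most inducible of these proteins in the mouse, and serum amyloid P component (Apcs), a pentraxin, is a classical mouse acute phase reactant.

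Library totals of the 71 libraries used ran from 7.77 to 12.7 M counts, and 1 library, replicate 5 at 40 mg/mL for 14 d with 0.0108 M, was left out, so that group has 8 animals. All 7 defining hepatocyte markers (Alb, Apoa1, Ttr, Serpina1a, Apob, Cps1 and Apoh) were measured and passed the filter on low counts, with a summed level between 8859 and 55495 CPM (counts per 1 M counts, after scaling) in every library. Libraries differed in composition. The TMM factor, a scaling factor that is high where a few abundant features take less of a library, ran from 0.847 to 0.961 in the 14 d controls and was above 1.3 in 8 of 71 libraries, 4 of them among the 8 at 40 mg/mL for 14 d (replicates 1, 2, 7 and 8). In those 4 the 20 most abundant features held 8.20% to 11.9% of counts, against 20.2% to 23.2% in the 14 d controls. Each animal gave 1 library, so p values measure the spread between animals, and in a piece of liver fewer hepatocytes and less RNA per hepatocyte cannot be told apart.

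Of the 15 probes, 13 passed the filter on low counts. The second Saa1 probe had no count in any library and the second Lcn2 probe had 69 counts in all, so neither was tested. For each gene the probe with the most counts stands for it, with the other probes of Hp and Apcs beside it. The 4 serum amyloid genes lie together on chromosome 7 (GRCm38), from Saa3 at 46711998 to Saa2 ending at 46754313, and Orm1 and Orm2 neighbour each other on chromosome 4. The longest reading frames of Saa1 and Saa2 were 95.1% identical and those of Orm1 and Orm2 89.9%, against 77.1% for Saa1 and Saa3 and 67.3% for Saa1 and Saa4, and no probe sequence was used here, so counts within the Saa1 and Saa2 pair and the Orm1 and Orm2 pair may be split between copies and are uncertain to that extent.

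The 250 bases upstream of the RefSeq start site are shown for Saa1, Saa2 and Orm2, which stood out in the same single animals, and for Cxcl1 and Apcs, which were called at a dose. Capitals mark matches to TTGCNNAA, a C/EBP motif, in Saa1, Saa2 and Orm2, to an NF-kB motif, GGG followed by any 2 bases and TTTCC, in Cxcl1, and to TTCNNNGAA, a STAT3 motif, in Apcs (both strands, GRCm38.p6).
Saa1 (chr7:46742981-46743230, minus strand): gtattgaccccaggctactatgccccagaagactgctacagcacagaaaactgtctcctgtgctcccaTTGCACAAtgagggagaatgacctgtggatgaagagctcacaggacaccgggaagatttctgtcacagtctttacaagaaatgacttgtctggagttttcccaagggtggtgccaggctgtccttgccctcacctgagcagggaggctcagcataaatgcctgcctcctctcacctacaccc
Saa2 (chr7:46751583-46751832, plus strand): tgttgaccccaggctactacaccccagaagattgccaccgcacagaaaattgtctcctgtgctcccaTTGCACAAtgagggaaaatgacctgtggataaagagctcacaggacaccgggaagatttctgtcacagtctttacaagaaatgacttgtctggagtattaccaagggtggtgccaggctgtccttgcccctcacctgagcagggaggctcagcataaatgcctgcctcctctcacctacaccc
Orm2 (chr4:63362199-63362448, plus strand): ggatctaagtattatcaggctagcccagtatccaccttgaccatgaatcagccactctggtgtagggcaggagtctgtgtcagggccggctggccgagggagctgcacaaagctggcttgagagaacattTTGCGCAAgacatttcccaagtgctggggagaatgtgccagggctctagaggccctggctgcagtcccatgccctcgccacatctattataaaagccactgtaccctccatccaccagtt
Cxcl1 (chr5:90890995-90891244, plus strand): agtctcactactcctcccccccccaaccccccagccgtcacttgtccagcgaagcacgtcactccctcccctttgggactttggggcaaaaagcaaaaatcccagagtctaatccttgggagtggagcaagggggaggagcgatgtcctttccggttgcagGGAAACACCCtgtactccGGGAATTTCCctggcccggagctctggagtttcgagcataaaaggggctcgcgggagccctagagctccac
Apcs (chr1:172895055-172895304, minus strand): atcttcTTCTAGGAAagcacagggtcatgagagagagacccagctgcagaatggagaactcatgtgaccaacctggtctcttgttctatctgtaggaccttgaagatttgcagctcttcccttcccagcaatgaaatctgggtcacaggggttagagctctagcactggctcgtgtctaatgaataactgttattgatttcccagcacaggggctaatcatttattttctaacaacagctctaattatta
The Saa1 and Saa2 windows were 94.8% identical and carried the same 8 letters, TTGCACAA, 182 and 183 bases before the start. The Saa1 window, from 46742981 to 46743230, overlaps the listed span of that gene, which ends at 46743181. The RefSeq table held windows of 8 of the 10 genes, and Orm1 and Hp were not matched. TTGCNNAA was present in 6 of the 8, in every window but those of Cxcl1 and Apcs, and in 9.56% of 32851 mouse windows of the same length. The NF-kB motif occurred in Cxcl1 alone of the 8, at 2 places that did not overlap, and in 1.41% of all windows. The STAT3 motif occurred in Apcs alone of the 8 and in 7.02% of all windows.

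Cxcl1, the neutrophil chemokine, was higher at 20 mg/mL for 14 d. Its level in the 14 d controls ran from 4.89 to 15.7 CPM with a median of 8.37, and at 20 mg/mL from 2.36 to 337 CPM with a median of 15.8. The highest animal, replicate 5, stood at 337 CPM, replicates 3 and 6 at 47.9 and 46.5 CPM, and 5 of 9 dosed animals lay above every control while 2 lay below every control, so the groups overlapped. The log2 fold change was 2.69 ± 0.58 (SE), a 6.48-fold difference of fitted means, with an adjusted p of 0.0499 by edgeR's quasi-likelihood test (9 animals a group). Without replicate 5 it was 1.21 ± 0.47 with an adjusted p of 0.808, and leaving out any 1 of the 9 controls took the adjusted p to between 0.0531 and 0.134 while the log2 fold change stayed between 2.62 and 2.86. In this comparison 0.0352% of all probes were called (6 of 17050, with 0.0293% higher), and Cxcl1 and Saa2 were 2 of those 6.

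The other groups did not give a call for Cxcl1. At 10 mg/mL for 28 d it ran from 7.23 to 15.1 CPM with a median of 12.1, against 4.85 to 11.4 CPM with a median of 6.39 in the 28 d controls. There, 6 of 9 dosed animals lay above every control and none lay below every control, in a comparison in which 0% of probes were called. With 40 mg/mL for 14 d the range was 1.47 to 18.4 CPM and the median 9.69. That range ran past the 4.89 to 15.7 CPM of the 14 d controls on both sides. The order of the 8 group medians ran from 15.8 CPM at 20 mg/mL for 14 d down to 6.39 CPM in the 28 d controls, and the ranges of all 28 pairs of groups overlapped.

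**Figure D1:**
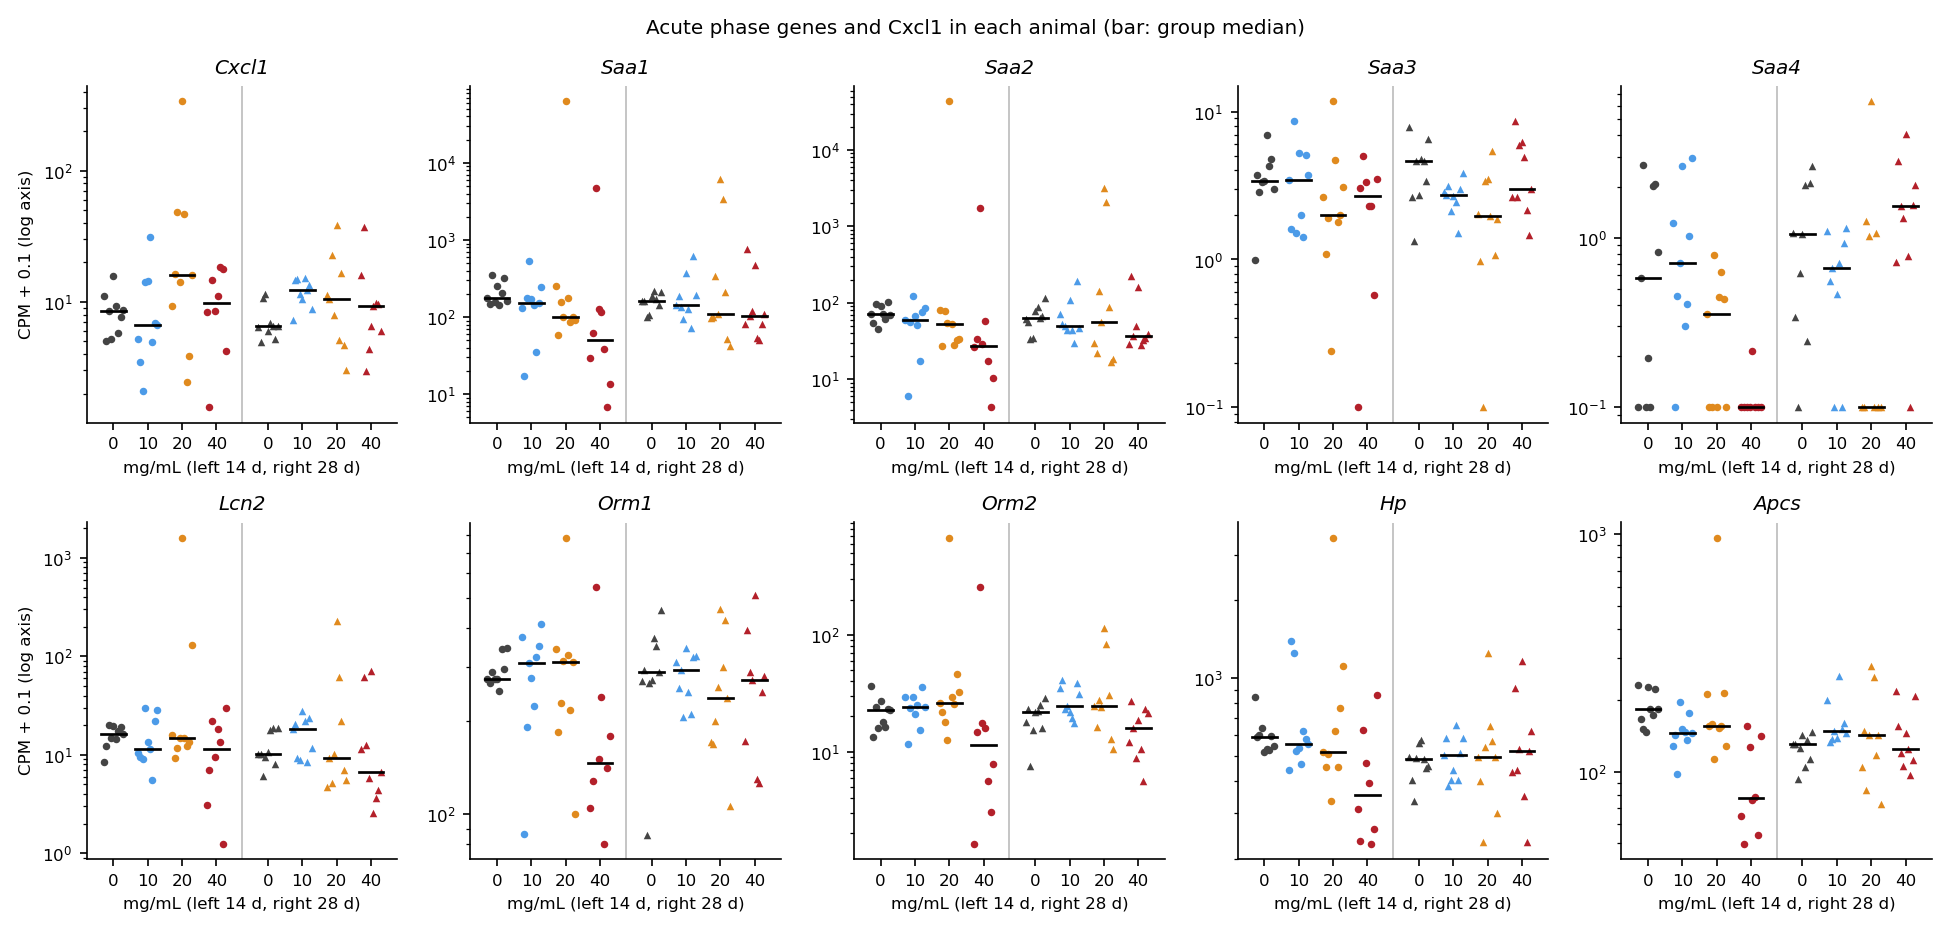
Level of each gene in every animal as CPM + 0.1 on a log axis, by dose (x axis, mg/mL) with the 14 d groups at the left and the 28 d groups at the right of each panel, and a bar at the group median. Replicate 5 at 20 mg/mL for 14 d is the single highest point for Saa1 (62868 CPM), Saa2 (43362 CPM) and Cxcl1 (337 CPM).

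Saa1 and Saa2, the inducible serum amyloids carried on high-density lipoprotein, had very high values in 4 dosed animals and medians below the controls in every dosed group. Saa1 ran from 143 to 357 CPM in the 14 d controls (median 176) and from 101 to 219 CPM in the 28 d controls (median 164). Replicate 5 at 20 mg/mL for 14 d reached 62868 CPM, while the other 8 animals lay between 58.0 and 254 CPM. Saa1 alone then took 5.60% of that library's counts and Saa2 3.86%. Replicate 3 at 40 mg/mL for 14 d reached 4695 CPM and the other 7 lay between 6.68 and 127 CPM. Among the animals given 20 mg/mL for 28 d, replicates 5 and 6 reached 6170 and 3405 CPM, and the lowest animal stood at 41.6 CPM. The highest Saa1 in any of the 18 control libraries was 357 CPM, below these 4 values.

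Set against those peaks, the medians of Saa1 were lower in every dosed group than in its controls. In order of rising dose they were 153, 99.7 and 49.9 CPM after 14 d, and 144, 111 and 105 CPM for 28 d. After 14 d at 40 mg/mL, 7 of 8 animals lay below every control and 1 lay above every control, and after 14 d at 20 mg/mL 5 of 9 lay below and 1 above. The median of Saa1 at 40 mg/mL for 14 d was the lowest of the 8 groups, 3.53-fold below the highest, yet the ranges of all 28 pairs of groups overlapped.

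Fitted means and medians therefore pointed in different directions. The log2 fold change of Saa2 at 20 mg/mL for 14 d was 6.05 ± 1.303 (SE), with an adjusted p of 0.0499 by edgeR, and that of Saa1 was 5.05 ± 1.22 with an adjusted p of 0.124. Without replicate 5 the log2 fold changes were -0.60 ± 0.81 for Saa2 and -0.74 ± 0.83 for Saa1, with adjusted p values of 0.998 and 0.994. With any 1 of the 9 controls left out the log2 fold change of Saa2 stayed between 5.99 and 6.12, and its adjusted p, from 0.0531 to 0.134, did not pass. Saa2 levels were 45.2 to 101 CPM in the 14 d controls (median 71.0) and, at 20 mg/mL, 43362 CPM in replicate 5 and 27.0 to 81.1 CPM in the other 8, with a group median of 52.0. In the median animal Saa2 was thus lower than in the controls although the fitted fold change was 66.4.

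At 40 mg/mL for 14 d neither Saa1 nor Saa2 was called. Saa2 stood at 1756 CPM in replicate 3 and between 4.18 and 57.2 CPM in the other 7 animals, 6 of which lay below every control. The log2 fold changes were 1.57 ± 1.08 for Saa1 and 1.72 ± 1.10 for Saa2, and without replicate 3 they were -1.93 ± 1.06 and -1.54 ± 1.08, with adjusted p values of 0.304 and 0.460 by edgeR. DESeq2, which by default replaces outlying counts, gave Saa1 a log2 fold change of -1.65 with an adjusted p of 0.0381. The log2 fold changes after 28 d at 20 mg/mL were 2.84 ± 1.11 for Saa1 and 3.24 ± 1.14 for Saa2, with adjusted p values of 0.197 and 0.155 by edgeR, and 3 of 9 animals lay above and 4 below every control for both genes. With the 4 libraries highest in Saa1 left out, replicates 5 and 6 of this group among them, the log2 fold changes were -0.26 and -0.31. That fit picks animals by a gene under study, so it is no independent evidence. DESeq2 called Saa2 at 20 mg/mL for 28 d, with a log2 fold change of 2.10 and an adjusted p of 0.0243. For neither of these DESeq2 calls of Saa1 and Saa2 is the share of all probes called by DESeq2 given here. They were therefore not set against it. The called share of all probes by edgeR was 0.158% at 20 mg/mL for 28 d (27 of 17050), and none of the 10 genes was among them. With 1 library left out between 0 and 760 probes were called there (760 without control replicate 3, 348 without replicate 7 at 20 mg/mL, and 0 to 35 without any other), and again none of the 10 genes.

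**Figure D2:**
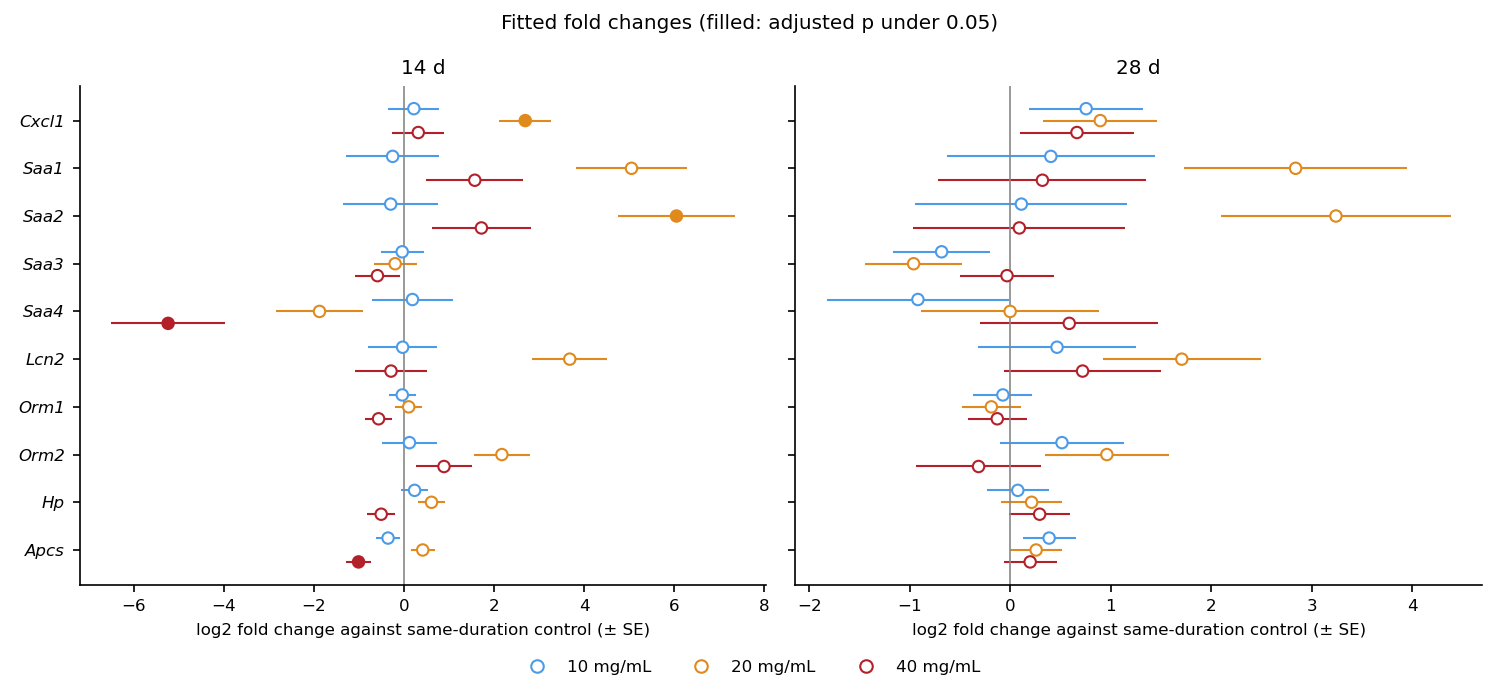
Fitted log2 fold change with its standard error (x axis) for each gene (y axis) at 3 doses against the control of the same duration, 14 d at the left and 28 d at the right, filled where the adjusted p was under 0.05. Cxcl1 and Saa2 at 20 mg/mL and Saa4 and Apcs at 40 mg/mL, all for 14 d, are the 4 filled points, and the bars of Saa1 and Saa2 are wide.

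Saa1 and Saa2 kept step with each other across animals. After the group means were removed, Spearman's rho of their log2 CPM was 0.940 and Pearson's r 0.979 over 71 animals (permutation tests, adjusted p of 3.75e-05 and 4.09e-05 over the 45 pairs of genes, from the smallest p of 1e-05 that the permutations can give). Without the 2 animals farthest from the median, namely replicate 5 of the 20 mg/mL group and replicate 3 of the 40 mg/mL group (14 d), r was 0.960, and rho was 0.926 within the 14 d groups and 0.946 within the 28 d groups. The ratio of their CPM ran only from 1.15 to 4.49 (median 2.67), while Saa1 itself ran from 6.68 to 62868 CPM. How far the near-identity of the 2 genes enters this relation was not tested.

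**Figure D3:**
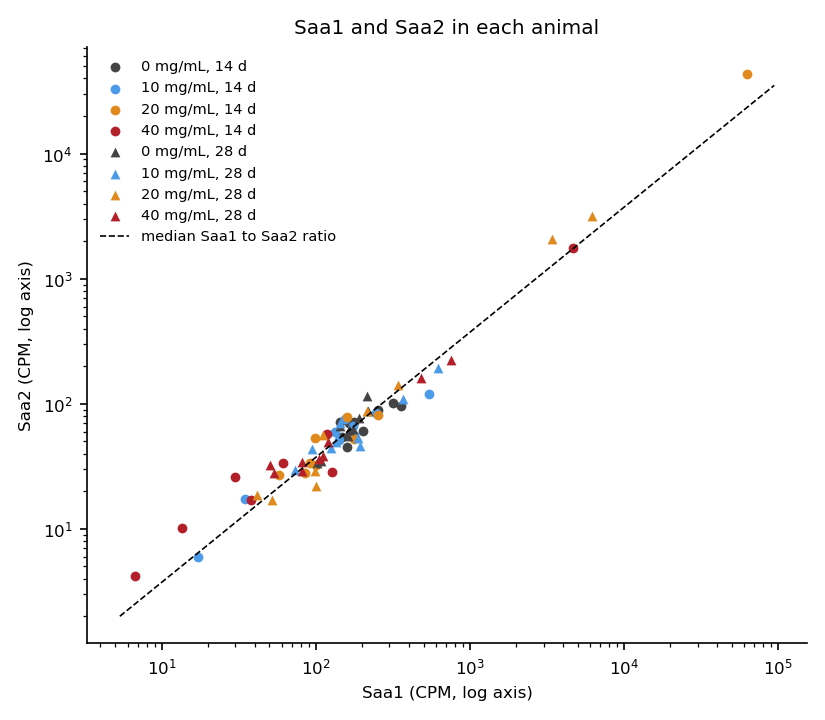
Saa2 against Saa1 in CPM (both log axes), 1 point per animal, coloured by dose, with circles for 14 d and triangles for 28 d and a dashed line at the median ratio of 2.67. Points follow the line from 6.68 to 62868 CPM of Saa1, and 4 dosed animals lie at 3405 CPM of Saa1 or more, with the next highest at 756 CPM.

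Saa3, a serum amyloid made largely by macrophages and other cells outside hepatocytes, was low throughout. It ran from 0.893 to 6.89 CPM in the 14 d controls and from 1.22 to 7.82 CPM in the 28 d controls, and its highest value, 11.7 CPM, was again in replicate 5 at 20 mg/mL for 14 d. After 28 d at 20 mg/mL, where its median of 1.86 CPM was the lowest of the 8, the log2 fold change was -0.96 ± 0.48 with an adjusted p of 0.327 by edgeR. In contrast with Saa1, replicates 5 and 6 of that group did not hold its highest value, 5.28 CPM, which was in replicate 7.

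Saa4, the constitutive serum amyloid, was near the detection limit and was lower at 40 mg/mL for 14 d. The 9 controls held 72 counts in all, 27 of them in replicate 3, and 3 were at 0. In the dosed group 7 of 8 libraries were at 0 and replicate 6 had 1 count. The ratio of dosed to control, scaled by library size, was 0.0120 with an exact 95% interval of 0.000300 to 0.0690 that covers counting error only. The fitted log2 fold change was -5.24 ± 1.27, which depends on the prior count, with an adjusted p of 0.00563 by edgeR, and it passed with each of the 17 libraries left out in turn. With the log2 TMM factor as a covariate it was -2.40 with an adjusted p of 0.235, and with libraries above a factor of 1.3 left out -4.53 with an adjusted p of 0.191. The 20 mg/mL group of 14 d held 18 counts in 9 libraries, a ratio of 0.235 (0.132 to 0.399), and the adjusted p was 0.838. The 40 mg/mL group of 28 d held 126 counts against 75 in the 28 d controls. The difference of the 40 mg/mL effect between durations was 5.82 ± 1.53 on the log2 scale, with an adjusted p of 0.222 by edgeR.

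Lcn2 encodes lipocalin 2, which binds bacterial siderophores and is made by hepatocytes and neutrophils in inflammation. It ran from 8.26 to 19.8 CPM in the 14 d controls (median 16.0). Replicate 5 at 20 mg/mL for 14 d stood at 1600 CPM and replicate 9 of that group at 129 CPM, and the other 7 lay between 9.22 and 15.8 CPM, inside the control range. The log2 fold change was 3.68 ± 0.83 with an adjusted p of 0.0508 by edgeR, just over the threshold, and 0.82 ± 0.63 without replicate 5. After 28 d at 20 mg/mL replicates 5 and 6 stood at 229 and 61.0 CPM against 5.96 to 18.8 CPM in the controls, with a log2 fold change of 1.71 ± 0.79 and an adjusted p of 0.283. After 28 d at 40 mg/mL replicates 5 and 2 stood at 71.3 and 61.8 CPM, while the median of that group, 6.64 CPM, was the lowest of the 8.

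Orm1 and Orm2 encode orosomucoids, also called alpha-1-acid glycoproteins, which bind drugs and modulate immune cells. Orm2 went with Saa1 in the animals that stood apart. It was 13.1 to 36.5 CPM in the 14 d controls, 676 CPM in replicate 5 of the 20 mg/mL group with 12.5 to 46.4 CPM in the other 8, and 259 CPM in replicate 3 of the 40 mg/mL group (both 14 d) with 1.53 to 17.5 CPM in the other 7. At 20 mg/mL the log2 fold change was 2.18 ± 0.63 with an adjusted p of 0.369 by edgeR. At 40 mg/mL it was 0.89 ± 0.63, and without replicate 3 it was -1.24 ± 0.56 with an adjusted p of 0.190. The Orm2 median at 40 mg/mL for 14 d, 11.2 CPM, was the lowest of the 8 groups.

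Orm1 ran from 251 to 344 CPM in the 14 d controls (median 274) and from 80.3 to 544 CPM at 40 mg/mL for 14 d (median 146), where 7 of 8 animals lay below every control and replicate 3 lay above every control. The log2 fold change was -0.56 ± 0.31 with an adjusted p of 0.318 by edgeR, and -0.99 ± 0.29 with an adjusted p of 0.0253 without replicate 3. Of the 10 genes Orm1 moved most with the TMM factor, at a Spearman's rho of -0.839 over 71 animals with group means removed, or -0.706 when CPM was not divided by that factor. With the log2 TMM factor as a covariate its log2 fold change at 40 mg/mL for 14 d turned to 0.50.

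Hp encodes haptoglobin, which binds free haemoglobin. It was called in no comparison by any of its 3 probes. It ran from 515 to 847 CPM in the 14 d controls (median 589), reached 3483 CPM in replicate 5 at 20 mg/mL for 14 d, and had its lowest group median, 351 CPM, at 40 mg/mL for 14 d, where 6 of 8 animals lay below every control. The log2 fold change at 20 mg/mL for 14 d was 0.61 ± 0.31 with an adjusted p of 0.824 by edgeR and was -0.01 without replicate 5.

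Apcs, serum amyloid P component, was called lower at 40 mg/mL for 14 d, the one call among the 10 genes there apart from Saa4. It ran from 147 to 233 CPM in the 14 d controls (median 183) and from 49.6 to 155 CPM at 40 mg/mL (median 77.0). In that group 7 of 8 animals lay below every control, and replicate 3, at 155 CPM, lay inside the control range. The log2 fold change was -1.01 ± 0.27, a 2.01-fold difference, with an adjusted p of 0.0159 by edgeR, and the second probe gave -1.21 ± 0.35 with an adjusted p of 0.0222. The call held with each of the 17 libraries left out in turn, at adjusted p values from 0.00586 to 0.0477. In this comparison 6.52% of all probes were called (1111 of 17050, with 3.68% lower), and Saa4 and Apcs were the 2 called among the 10 genes.

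The size and the call of the Apcs difference depended on how library composition was treated. In CPM computed without the TMM factor Apcs ran from 128 to 218 in the 14 d controls (median 166) and from 68.8 to 159 at 40 mg/mL (median 112), with 5 of 8 animals below every control. With the log2 TMM factor as a covariate the log2 fold change was -0.61 with an adjusted p of 0.267, and with libraries above 1.3 left out -0.58 with an adjusted p of 0.617. High factors were most frequent in this group, and how much of the difference goes with dose and how much with composition cannot be told apart here. After 28 d at 40 mg/mL Apcs ran from 96.6 to 219 CPM against 93.1 to 146 CPM in its controls, where 3 of 9 animals lay above every control. The difference of the 40 mg/mL effect between durations was 1.20 ± 0.38 on the log2 scale, with an adjusted p of 0.350 by edgeR.

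**Figure D4:**
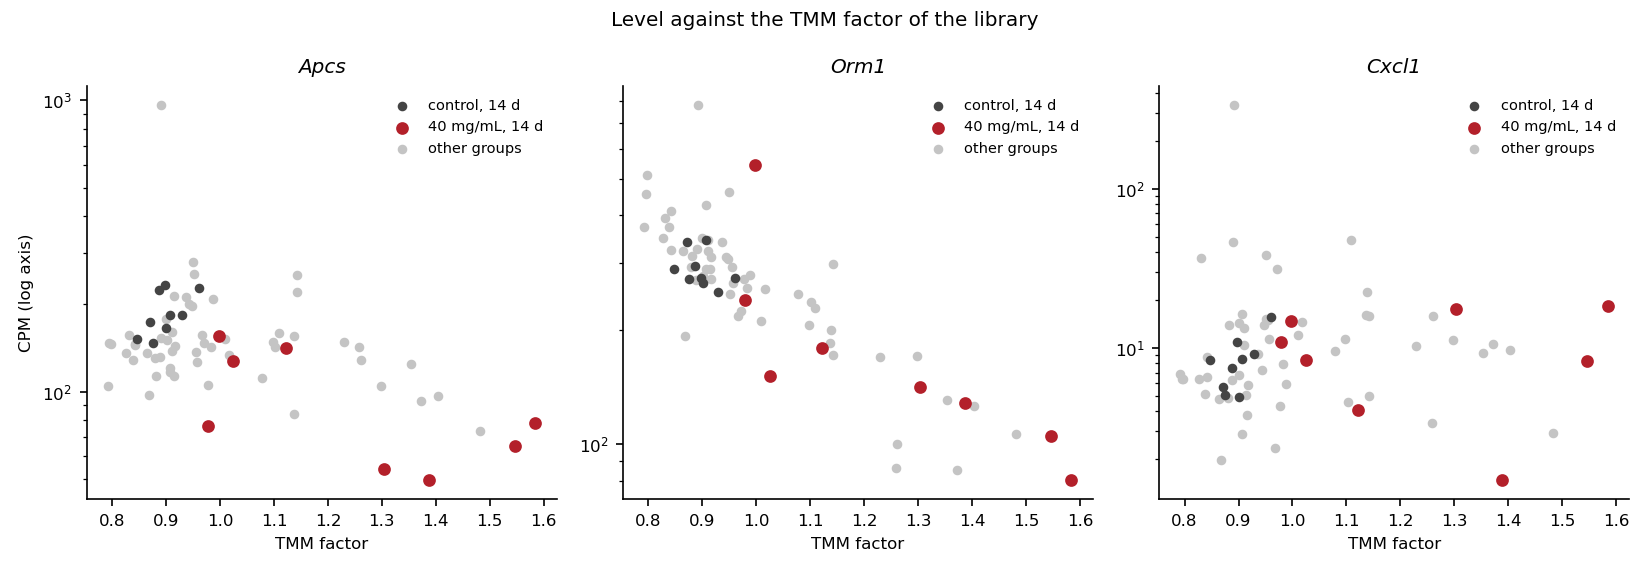
CPM (log axis) of Apcs, Orm1 and Cxcl1 against the TMM factor of the library, 1 point per animal, with the 14 d controls in dark grey, 40 mg/mL for 14 d in red and the other groups in light grey. Controls lie between factors of 0.847 and 0.961, Orm1 is lower at higher factors (rho -0.839, or -0.706 in CPM not divided by the factor), and Cxcl1 shows little relation (rho 0.104, or 0.271).

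Over the 6 dose comparisons and the 2 trends, calls for these genes were few. The linear trend over doses at 14 d called Saa4 (-1.42 ± 0.32 log2 per 10 mg/mL, adjusted p 0.00245 by edgeR) and Apcs (-0.22 ± 0.07, adjusted p 0.0306), in a comparison with 7.99% of all probes called and 4.34% called lower. Saa1 and Saa2 had trends of 0.57 and 0.64 at adjusted p values of 0.170 and 0.122, which were -0.33 and -0.20 without replicate 3 at 40 mg/mL. None of the 10 was called at 10 mg/mL for 14 or 28 d (0% of probes by edgeR, with 736 and 707 at an unadjusted p under 0.05, 12 and 0 called by DESeq2 and 4 and 14 by limma), at 40 mg/mL for 28 d (0.00587%, or 1 probe) or in the 28 d trend (0.129%). At 40 mg/mL for 28 d the log2 fold changes of the 10 genes ran from -0.32 for Orm2 to 0.72 for Lcn2. The doses of a duration share their controls, so their results are not independent of one another.

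Dose effects were not shown to differ between durations. None of the 10 genes passed in the 3 tests of that difference by edgeR, in which 0% of all probes were called (732, 537 and 1081 probes had an unadjusted p under 0.05 at the 3 doses in order, and DESeq2 called 0, 0 and 22 and limma 0). At 20 mg/mL the largest of the 10 by p was Cxcl1, whose log2 fold change was lower at 28 d by -1.80 ± 0.79, with an adjusted p of 0.999, and without replicate 5 at 14 d by -0.31. The 28 d and 14 d controls gave no call either (0% of probes, 516 at an unadjusted p under 0.05, 0 called by DESeq2 and 2 by limma), and Apcs, at -0.59 ± 0.26, was the only one of the 10 with an unadjusted p under 0.05, at 0.0290.

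**Figure D5:**
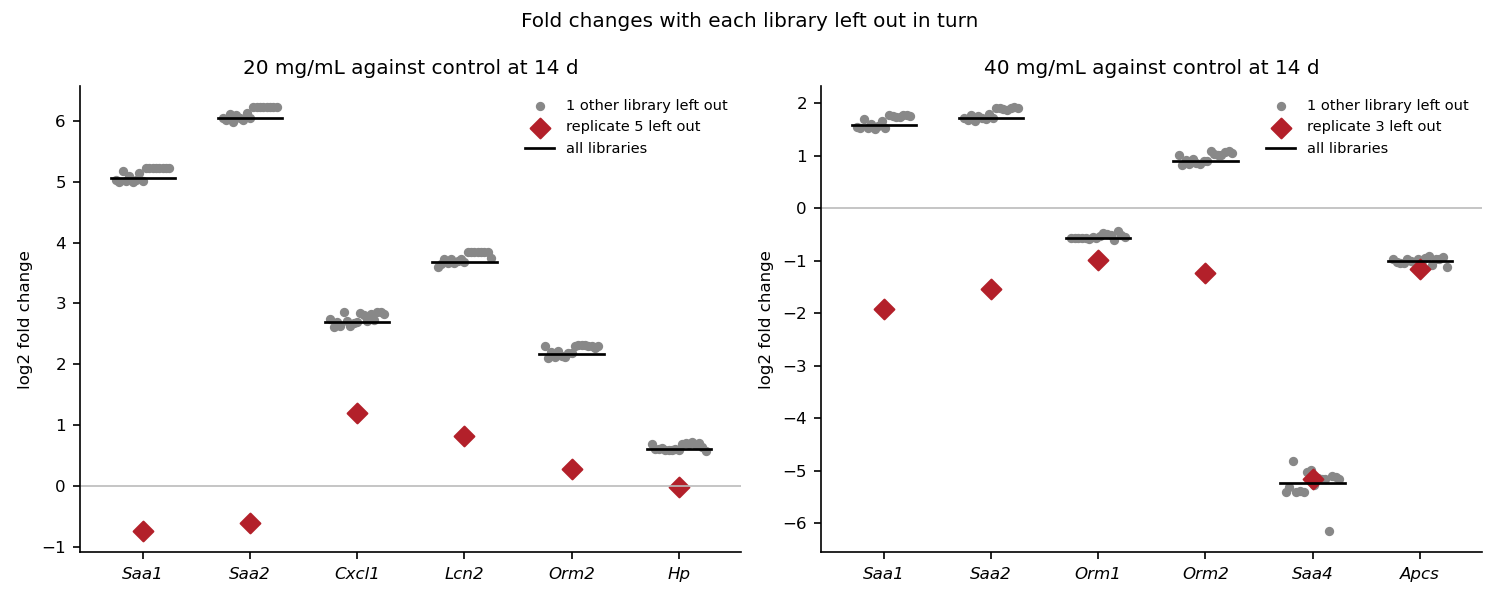
Log2 fold change at 20 mg/mL (left) and 40 mg/mL (right) for 14 d with all libraries (black bar), with each other library left out (grey) and with replicate 5 or replicate 3 left out (red diamond). The diamonds of Saa1 and Saa2 lie below 0, at -0.74 and -0.60 at 20 mg/mL and at -1.93 and -1.54 at 40 mg/mL, while Saa4 and Apcs, drawn at 40 mg/mL alone, lie below 0 with each library left out.

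The other acute phase proteins and their signalling genes, from lists of known members, were set beside these results. At 20 mg/mL for 14 d none of the 24 other positive acute phase proteins, 9 negative ones, 25 genes of interleukin-6 and interleukin-1 signalling and 11 chemokines and receptors was called. The median log2 fold change of the 10 genes was 1.39 there, that of the 24 others 0.18 and that of all probes 0.02. At 40 mg/mL for 14 d, where 3.68% of all probes were called lower, 6 of the 24 positive ones were called lower and none higher. Of their 24 log2 fold changes, 18 were below 0 and 6 above. Fgg, a fibrinogen chain, fell by 1.18 ± 0.27 on the log2 scale, and Hpx, the haem carrier haemopexin, by 1.08 ± 0.26. Serpina3k fell by 1.42 ± 0.34 and complement C3 by 0.95 ± 0.24. The adjusted p values of those 4 were 0.00378, 0.00477, 0.00477 and 0.00849 by edgeR. Also called lower were Lbp and Cfb, which were chosen after their values were seen.

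The negative acute phase proteins fell in the same group. Of 9 measured, 6 were called lower (Ahsg, Igf1, Apoa1, Ttr and, named after their values were seen, Alb and Rbp4) and all 9 had log2 fold changes below 0, beside 3.68% of all probes called lower. Ahsg, fetuin-A, fell by 1.25 ± 0.19 on the log2 scale and Igf1, the liver-made growth factor, by 0.85 ± 0.14, with adjusted p values of 1.47e-05 and 4.74e-05. The medians were -0.67 for the positive and -0.72 for the negative proteins, against 0.06 for all probes and -0.39 for the 10 genes. With libraries above a TMM factor of 1.3 left out, 0 of the 24 positive and 2 of the 9 negative proteins were called lower. Fewer of all probes were called in that fit too. Leaving out 1 library gave 2 to 7 negative proteins, with 2 or 3 without replicate 1, 2, 7 or 8 at 40 mg/mL or without control replicate 1 or 4. Without replicate 3 at 40 mg/mL, the animal with high Saa1, 12 of the 24 positive proteins were called lower. With 1 library left out, the number of all probes called in this comparison ran from 584 to 1496. Of 25 signalling genes Il1rap, an interleukin-1 receptor subunit, was called lower (0 to 3 of the list with 1 library left out) and the rest were not, at a median of 0.07, and Il6 itself was below the filter. Hepatocyte markers were called lower in 5 of 7, against the same 3.68%, and in 0 of 7 in the fit without libraries above 1.3. The 5 were Apoh, Serpina1a, Apoa1, Ttr and Alb, of which Apoa1, Ttr and Alb were already counted among the negative proteins. The summed level of all 7 hepatocyte markers was 8859 to 36986 CPM at 40 mg/mL for 14 d, against 35087 to 51617 CPM in the controls. The part of that level in these results was not tested.

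The animals with the highest Saa1 were then described across the lists, without a test, since they were picked for that gene. Replicate 5 at 20 mg/mL for 14 d was the highest of its group for 9 of the 10 genes, 16 of the 24 other positive proteins and 14 of the 25 signalling genes, and the lowest for 3 of the 9 negative proteins, when it was the highest for 12.5% and the lowest for 9.90% of all probes. Its Fgg stood at 15346 CPM with 2779 to 5370 in the other 8, and its Hpx at 4952 CPM with 966 to 1746. Chosen after their values were seen, Lrg1, a glycoprotein induced by interleukin-6, stood at 749 CPM with 31.8 to 119 in the others, and Il1r1, the interleukin-1 receptor, at 443 CPM with 46.7 to 76.9. The TMM factor of its library was 0.891, inside the range of the 14 d controls. The 20 most abundant features held 14.6% of its counts, below the 20.2% to 23.2% of those controls.

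The other 3 animals were described in the same way. Replicate 5 at 20 mg/mL for 28 d was the highest of its group for 9 of the 10 genes, 14 of 24 other positive proteins and 10 of 25 signalling genes (11.1% of all probes), and replicate 3 at 40 mg/mL for 14 d for 6 of 10, 10 of 24 and 1 of 25 (10.4%). Each of these 2 animals was the highest of its group for 3 of the 9 negative proteins and the lowest for none. Replicate 6 at 20 mg/mL for 28 d, second to replicate 5 in Saa1, was the highest for none of the 10, none of the 24 and 2 of the 25 (8.87% of all probes), in a group where replicate 5 held 9 of the 10 highest values.

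Markers of other liver and blood cells were read in the same libraries. Neutrophil markers, of interest because neutrophils carry Lcn2 and answer to Cxcl1, passed the filter for 3 of 13 genes, while S100a8, S100a9, Mpo and 7 others did not. The summed level of all 13 was 14.6 to 37.7 CPM in the 14 d controls and 4.84 to 34.4 CPM at 20 mg/mL for 14 d, where replicate 4 and not replicate 5 was highest. Kupffer cell and macrophage markers (11 of 12 passed, all 12 summed) came to 252 to 326 CPM in the 14 d controls and to 150 to 436 CPM at 20 mg/mL for 14 d, where replicate 5 was highest, and to 224 to 482 CPM at 20 mg/mL for 28 d, where replicate 5 was again highest. Sinusoidal endothelial markers (6 of 7 passed, all 7 summed) were also highest in both animals, at 522 CPM at 14 d against 396 to 482 CPM in the controls and at 643 CPM at 28 d against 391 to 469 CPM. For all 6 of those that passed, the 28 d animal was the highest of its group. The part of these markers in the levels of those 2 animals was not tested. No neutrophil, macrophage, T cell, B cell, endothelial or cholangiocyte marker was called in any of the 6 dose comparisons, and the one call among the other marker lists was Reln of stellate cells, with a log2 fold change of -0.71 ± 0.21 at 40 mg/mL for 14 d (adjusted p 0.0263 by edgeR), which was lost in 6 of the 17 fits with 1 library left out.

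Across animals most of the 10 genes varied together. Of 45 pairs, 44 had a positive Spearman's rho, 34 passed at an adjusted p under 0.05 and all of those were positive (permutation tests, 71 animals, group means removed). The lowest rho that passed was 0.265, and of all pairs of tested probes 7.65% reached it and 50.4% were above 0. In CPM without the TMM factor 20 of the 45 pairs reached 0.265, against 23.3% of all pairs of probes. After Saa1 and Saa2 the closest pairs with Saa1 were Orm2 (rho 0.738, r 0.861, and r 0.722 without the 2 farthest animals), Lcn2 (0.673, 0.775 and 0.712) and Orm1 (0.630, 0.688 and 0.569), each at an adjusted p of 3.75e-05 for rho. Cxcl1 had a rho of 0.246 with Saa1 (adjusted p 0.0712, r 0.486 and 0.273 without the 2 farthest), 0.156 with Lcn2, 0.00476 with Orm1 and -0.0661 with Hp. Among its 9 pairs Saa2 alone passed by rho, at 0.265 with an adjusted p of 0.0448, whereas 5 of 9 passed by Pearson's r. Apart from Cxcl1, the genes were lower in libraries with a higher TMM factor, at rho from -0.839 for Orm1 to -0.312 for Apcs. CPM is divided by that factor, and without the division the rho was -0.706 for Orm1, -0.288 for Orm2, -0.124 for Hp and 0.181 for Apcs. The median rho over the 45 pairs was then 0.240 in place of 0.417, and that over all pairs of probes 0.107 in place of 0.00188. Points share library and depth.

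By the same measure the probes of other genes most like Saa1 over the 71 animals were those of Clec1b (rho 0.712), Serping1 (0.710), Serpina10 (0.700), Rnase4 (0.699) and Cpd (0.695). Those most like Cxcl1 were Junb (0.625), Zfp36 (0.561), Tifa (0.536), Btg2 (0.5002) and Cygb (0.496). For Hp they were Apob (0.752), Cyp39a1 (0.746), Serpina3n (0.743), Serinc3 (0.742) and Lbp (0.741).

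Ordered by group median, 7 of the 10 genes (Saa1, Saa2, Saa4, Orm1, Orm2, Hp and Apcs) were lowest at 40 mg/mL for 14 d. Saa4 was at 0 there and at 20 mg/mL for 28 d alike. This was also so in CPM not divided by the TMM factor, which leaves differences in composition in place. Within the 40 mg/mL group of 14 d their medians, apart from Saa4 at 0, were lower in the 4 libraries above a factor of 1.3. Hp, for example, had medians of 248 CPM there and 549 CPM in the other 4. CPM is divided by the same factor, so part of such a gap is built in. Over all 71 animals with group means removed, Spearman's rho of Hp with the factor was -0.481, or -0.124 without the division. The part of composition was not tested, and the share of all probes lowest in that group is not given here. Neighbours in these orders did not separate: group ranges overlapped in all 28 pairs for 9 of the genes and in 27 of 28 for Apcs.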

How the data were processed

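The authors deposited raw read counts per TempO-Seq probe for 72 liver libraries. Per the submitters' processing notes bcl2fastq 2.20 and Bowtie were used, while genome build and counting tool are not given in the sources used here. The 10 genes and all lists were chosen with earlier results of these data known. Groups came from the dose and duration labels, and replicates were numbered in accession order. Libraries under 100000 counts (1) were left out, and 17050 of 30146 probes passed edgeR's filter. Counts were TMM-scaled and fitted over 8 groups with edgeR 4.0.16 (R 4.3.3) by robust quasi-likelihood, with Benjamini-Hochberg adjustment over all probes and a threshold of 0.05. CPM values use TMM-scaled library sizes. Correlations used log2 CPM (prior count 2) and 100000 permutations. DESeq2 1.42.0, limma 3.58.1 and other settings were alternatives. The fit was also run on simulated counts, drawn without added outlying animals or differences in composition. That run therefore does not test the fit under either. Other genes named are up to 4 of each list and 3 of each marker list by smallest p, and the 5 probes most like Saa1, Cxcl1 and Hp. Promoters came from RefSeq (GRCm38.p6), gene positions from a RefSeq gene list on GRCm38 and reading frames from GENCODE transcripts. Without replicate samples of 1 animal, technical spread is not separated.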

Additional observations from a re-analysis of the deposited data

Results flagged for a closer look

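Each gene's highest and lowest animal was compared with the nearest other animal of its group by Dixon's ratio of that gap to the group's range. Of 80 combinations of gene and group, 14 held an animal beyond the 95% critical value (9 highest and 5 lowest), where chance gives about 1 in 20, or 4. Over all combinations of tested probe and group the share was 9.50% (1.86% highest and 7.64% lowest). The number was also 14 without TMM factors, with 9.735% of all combinations then beyond the value.

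Replicate 5 at 20 mg/mL for 14 d stood out as the highest of its group for Saa1 at 62868 CPM, Saa2 at 43362 CPM, Orm2 at 676 CPM and Apcs at 966 CPM. Replicate 3 at 40 mg/mL for 14 d stood out as the highest for Saa1 at 4695 CPM, Saa2 at 1756 CPM and Orm2 at 259 CPM. These 2 animals thus account for 7 of the 14. In the same group the highest Saa4 value, 0.115 CPM in replicate 6, is the single count above 7 libraries at 0, where the ratio is at its limit by construction.

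Among controls, Hp stood out as high in replicate 1 of the 14 d group at 847 CPM, and Saa3 as low in that animal at 0.893 CPM. Replicate 3 of the 28 d controls was low for Orm1 at 85.4 CPM and for Orm2 at 7.43 CPM. The remaining low values were Orm1 in replicate 2 at 10 mg/mL for 14 d, at 86.6 CPM, and Saa3 in replicate 3 at 20 mg/mL for 28 d, at 0 CPM.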

How the results depend on the processing

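Each comparison was refitted with other settings, 1 at a time. The alternative that leaves out the 4 libraries with the most Saa1 was chosen after seeing the data and picks animals by a gene under study, so its p values are no independent evidence. At 20 mg/mL for 14 d the 2 genes called became 1 with DESeq2 (Cxcl1), 0 with limma voom, without a filter, with only the groups compared, with the shallow library kept and without the 4 libraries, 4 without robust fitting and 5 with the TMM covariate, and 0 to 3 with 1 library left out. All probes called went from 6 to between 1 and 25. At 40 mg/mL for 14 d the 2 genes became 1 (Apcs) with limma voom, a mean of at least 5 CPM or only the groups compared, 0 with the TMM covariate or without factors above 1.3, and 6 without the 4 libraries, while all probes called went from 1111 to 148 without factors above 1.3. After 28 d at 20 mg/mL DESeq2 called 1 gene (Saa2) in place of 0. In the 14 d trend 2 became 1 with limma voom or at least 5 CPM, 0 with only the groups compared or without factors above 1.3, 4 with the covariate, 6 without the 4 libraries, and 1 to 3 with 1 library left out (1 without replicate 1, 2, 7 or 8 at 40 mg/mL). The 40 mg/mL difference between durations gained 1 call (Apcs, 1.35) without the 4 libraries. With 1 library left out, all probes called ran from 584 to 1496 at 40 mg/mL for 14 d and from 699 to 1833 in the 14 d trend. For the rises to 4 and 6 genes in these comparisons the number of all probes called is not given, so they were not set against it. The same holds for the DESeq2 call of Saa2 at 20 mg/mL for 28 d.

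Log2 fold changes that turned below 0 were, at 20 mg/mL for 14 d, Saa1 (DESeq2 -0.71, voom -0.15, without the 4 libraries -0.74), Saa2 (-0.57, -0.00759 and -0.60) and Hp (-0.00853 without the 4). At 40 mg/mL for 14 d they were Saa1 (-1.65, -1.058 and -1.93), Saa2 (-1.33, -0.70 and -1.54) and Orm2 (-1.001, -0.49 and -1.23), and in the 14 d trend Saa1 (-0.42, -0.25 and -0.50) and Saa2 (-0.33, -0.16 and -0.39). At 20 mg/mL for 28 d Saa1, Saa2 and Lcn2 were -0.26, -0.31 and -0.42 without the 4. Orm1 turned to 0.50 at 40 mg/mL for 14 d with the covariate. With 1 library left out, values ran at 20 mg/mL for 14 d from -0.74 to 5.22 (Saa1), -0.60 to 6.22 (Saa2) and -0.00795 to 0.72 (Hp), at 40 mg/mL for 14 d from -1.93 to 1.78 (Saa1), -1.54 to 1.92 (Saa2) and -1.24 to 1.09 (Orm2), and in the trend from -0.33 to 0.62 (Saa1) and -0.20 to 0.69 (Saa2). Beyond the libraries and covariates named, the cause was not tested. Each animal gave 1 library at 1 dose and duration, and the labels give no pairing, so the comparisons were unpaired.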
